A study of Drosophila melanogaster with 40 samples.

Results

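The gap genes are the first zygotic genes that divide the Drosophila embryo along its length. The 6 members described here were taken by name, as the FlyBase genes hb (FBgn0001180), Kr (FBgn0001325), kni (FBgn0001320), gt (FBgn0001150), tll (FBgn0003720) and hkb (FBgn0261434), out of 17665 genes with an expression value in any of the deposited tables. The rule uses their names and no measured value, and the set was chosen with earlier results of these data known. On the dm6 assembly hb lies on 3R at 8690980 to 8697822, Kr on 2R at 25226611 to 25231394, kni on 3L at 20692330 to 20695378, gt on X at 2427113 to 2428967, tll on 3R at 30852315 to 30854400 and hkb on 3R at 4345015 to 4346646 (Ensembl annotation). RNA was sequenced from ovaries and from embryos aged 0.75, 3 or 6 h, and N6-methyladenine (6mA) was mapped in embryo DNA. Binding of the forkhead-box protein Jumu was mapped by pull-down, with tagged Jumu from cultured cells and purified, fragmented embryo DNA. Wild-type embryos and ovaries were of the strain w1118. The jumu mutant embryos were M-Z+, which lack the maternal gene product, or M-Z-, which lack maternal and zygotic product, and jumu mutant ovaries were profiled as well. The jumu alleles had been made by Cas9 cutting. The M- DMAD embryos came from mothers without DMAD, the enzyme that removes 6mA, also known as Tet, and the DMAD knockdown embryos of 1 of the 6mA maps, aged 6 h, had been injected with double-stranded RNA against DMAD. Which allele or allele pair each mutant group carried is not given in the sources used here.

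Gap genes encode transcription factors, and their RNAs appear in broad bands of the syncytial blastoderm under the control of maternal gradients. Bicoid activates hb in the anterior, Caudal contributes to kni and gt in the posterior, Nanos with Pumilio and Brat represses translation of maternal hb RNA, and the terminal Torso pathway switches on tll and hkb at the poles by lifting repression by Capicua and Groucho. The maternal pioneer factor Zelda opens the promoters and enhancers of many of these genes, and gap proteins repress each other and set the stripes of the pair-rule genes. hb encodes a zinc-finger protein and differs from the other members in being both maternal and zygotic, with a distal promoter used in the ovary and a proximal promoter used by the early zygotic gene. Kr encodes the zinc-finger protein of the central band, kni a nuclear-receptor-like protein of the abdomen, gt a leucine-zipper protein of an anterior and a posterior band, tll an orphan nuclear receptor of both poles, and hkb a zinc-finger protein of the poles.

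The promoters are shown because hb, with its maternal RNA, has 2 of them, and because 3 of the windows hold the Zelda word. A 300-base window, 250 bases before to 50 bases after each annotated transcription start, was searched on both strands for CAGGTAG (Zelda), TAATCC (Bicoid), TTTATG (Caudal) and GTAAACA (forkhead factors). None of these words contains another. The 6 members had 8 start sites. CAGGTAG stood in 3 of the 8 windows and in 1.70% of the 19630 start-site windows of all protein-coding genes. TAATCC stood in 2 of 8 windows against 8.48% of all, TTTATG in 2 of 8 against 25.9%, and GTAAACA in 0 of 8 against 8.83%. The 3 windows with CAGGTAG were the proximal start of hb, the downstream start of kni and the single start of gt, and the word began 41 bases before the start in hb and 167 bases before it in kni, each time on the strand opposite to the gene, so that it reads CTACCTG below. The proximal hb window also held TAATCC at 170 and 65 bases before the start, and the kni window held TAATCC once and TTTATG in both orientations. The windows of Kr, of hkb, of the distal hb start and of the upstream kni start held none of the 4 words, and that of tll held TTTATG alone. These matches are letters in a window and not measured sites. No word other than these 4 was searched, so other forms of the binding sites are not covered. The 4 windows below are dm6 sequence read on the strand of the gene, with the matches in capitals.
hb, proximal start, chr3R:8694551-8694850, minus strand: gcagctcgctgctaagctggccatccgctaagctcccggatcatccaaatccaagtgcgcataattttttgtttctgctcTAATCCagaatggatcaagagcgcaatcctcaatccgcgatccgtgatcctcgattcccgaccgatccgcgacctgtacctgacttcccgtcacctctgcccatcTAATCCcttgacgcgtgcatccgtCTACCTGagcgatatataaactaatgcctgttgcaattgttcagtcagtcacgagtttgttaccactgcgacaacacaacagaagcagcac
hb, distal start, chr3R:8697773-8698072, minus strand: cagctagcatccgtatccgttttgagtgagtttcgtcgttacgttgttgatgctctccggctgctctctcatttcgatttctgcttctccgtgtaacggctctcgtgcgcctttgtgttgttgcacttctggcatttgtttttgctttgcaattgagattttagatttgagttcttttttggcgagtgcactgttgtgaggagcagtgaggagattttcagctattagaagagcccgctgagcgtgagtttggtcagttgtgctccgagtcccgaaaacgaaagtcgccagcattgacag
kni, downstream start, chr3L:20694507-20694806, minus strand: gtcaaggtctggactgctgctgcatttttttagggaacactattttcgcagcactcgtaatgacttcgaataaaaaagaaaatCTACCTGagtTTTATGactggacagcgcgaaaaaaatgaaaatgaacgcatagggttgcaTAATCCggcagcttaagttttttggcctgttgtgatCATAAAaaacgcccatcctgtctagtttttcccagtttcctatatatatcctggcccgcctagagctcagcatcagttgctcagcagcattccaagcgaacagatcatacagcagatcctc
gt, chrX:2428918-2429217, minus strand: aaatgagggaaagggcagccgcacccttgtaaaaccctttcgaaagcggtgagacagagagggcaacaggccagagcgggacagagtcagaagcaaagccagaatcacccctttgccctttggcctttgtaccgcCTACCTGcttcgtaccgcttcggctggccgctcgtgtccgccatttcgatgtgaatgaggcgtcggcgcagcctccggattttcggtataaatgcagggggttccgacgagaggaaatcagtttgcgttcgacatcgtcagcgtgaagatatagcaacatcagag

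Each RNA group was sequenced as 2 libraries and deposited as 1 FPKM value per gene (fragments scaled by transcript length and by the number of mapped fragments), so no member has a replicate error and no comparison has a p-value. The read depth behind a value is unknown from these tables. FPKM is scaled by transcript length, so levels of different genes can be set side by side. A gene was counted as past the 2-fold rule when log2(FPKM + 1) differed by at least 1 between the groups compared, and genes below an FPKM of 1 in both groups were not counted. The 12 groups came from 7 tables, and whether tables were scaled together is not given in the sources used here. The 12 eggshell and yolk genes listed as ovary markers stood at 359 to 12019 FPKM in the ovary groups and at no more than 9.93 FPKM in any embryo group. The RNA of the targeted genes did not separate the labelled groups. jumu RNA was 71.8 FPKM in the 3-h wild type of the jumu series, 102.7 in M-Z+ and 55.5 in M-Z-, and Tet RNA was 1.49 FPKM in the 3-h wild type of the DMAD series and 3.41 in the group labelled M- DMAD. An allele can leave its RNA in place, so these values do not test the labels.

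Before zygotic transcription hb was the single gap gene with abundant RNA. Its level was 69.8 FPKM in wild-type ovaries, 89.9 in jumu mutant ovaries, 121.6 in 0.75-h wild type of the stage series, 105.9 in 0.75-h wild type of the jumu series and 120.1 in 0.75-h jumu M-Z+ embryos. In these 5 groups hb made up 93.3% to 99.5% of the summed FPKM of the 6 members. The other members were at or below 0.236 FPKM in ovaries, with hkb listed at 0 in jumu mutant ovaries and tll not listed in the ovary table. At 0.75 h they were between 0.190 and 3.98 FPKM, in each case highest for Kr. In the ovary comparison hb was the only member above the minimum, with a difference of 0.36 in log2(FPKM + 1), and 0 of 1 member tested was past 2-fold against 6.64% of all 7918 genes in either direction. Of all calls there, 23.6% were higher as deposited and 40.0% after quantile normalization, which gives both groups the same distribution. In ovaries the RNAs of maternal regulators of gap genes were at similar levels in both genotypes, with 0 of 8 past 2-fold, among them exu, needed to localize bcd RNA, at 528 and 526 FPKM and nos at 388 and 423 FPKM.

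**Figure D1:**
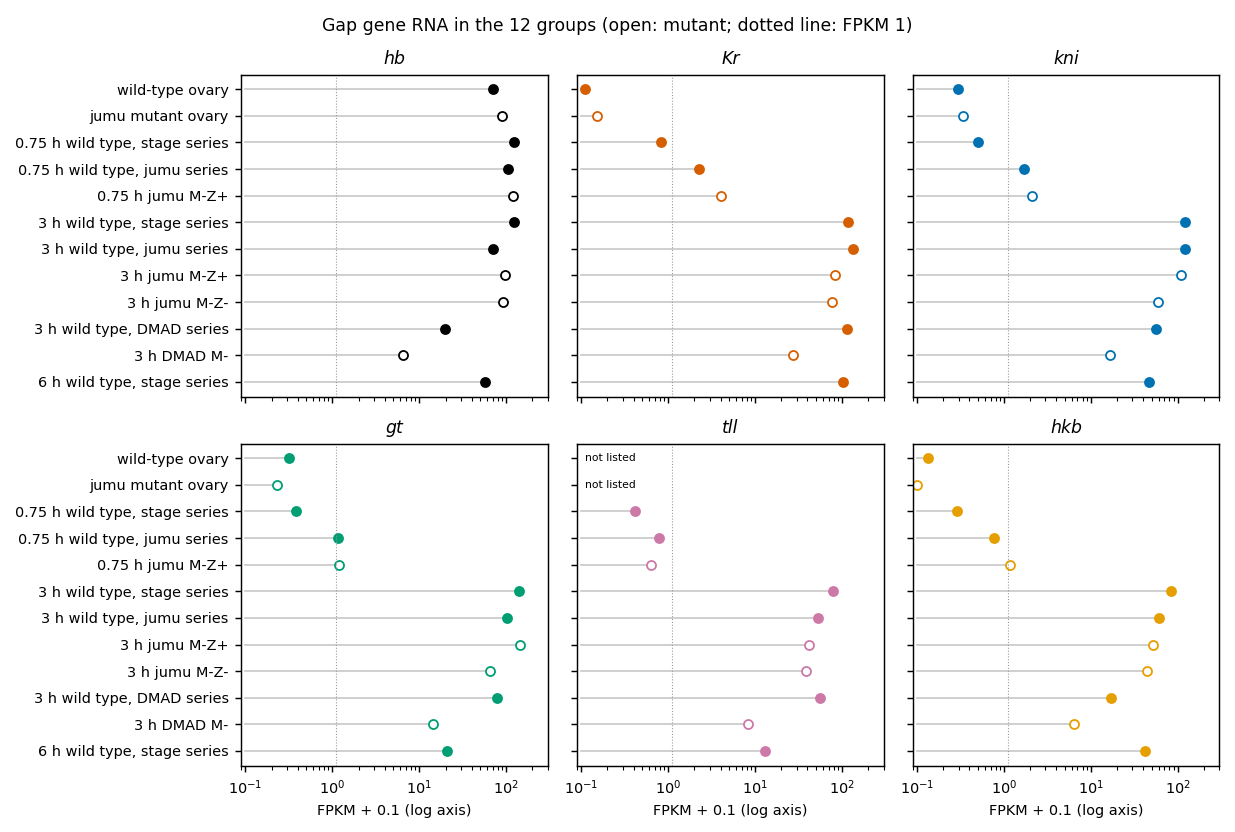
FPKM plus 0.1 of each gap gene (log axis) in the 12 RNA groups, 1 point per group, with filled points for wild type, open points for mutants and a dotted line at an FPKM of 1. hb is above 69 FPKM in ovaries and at 0.75 h, where the other 5 genes are at or below 3.98 FPKM, and all 6 genes are lower in M- DMAD embryos than in the 3-h wild type of the same series.

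Between 0.75 h and 3 h in the stage series 5 of 6 gap genes were past 2-fold higher, against 24.6% of the 8832 genes tested, while hb kept its level. Kr went from 0.737 to 117 FPKM, kni from 0.403 to 119.8, gt from 0.284 to 138, tll from 0.310 to 78.5 and hkb from 0.190 to 82.8 FPKM. The differences in log2(FPKM + 1) were 6.09, 6.43, 6.76, 5.92 and 6.14 in the same order, and all 5 were at or above the 99.0 percentile of the genes tested. hb RNA was 121.6 FPKM at 0.75 h and 121.4 FPKM at 3 h, a difference of -0.0018. Gene-level FPKM adds transcripts of both hb promoters, so maternal and zygotic hb RNA could not be told apart. The median over the 6 members was 6.11 against 0.23 over all genes. The 0.75-h starting values of the 5 genes were below the FPKM minimum, so they passed the filter through the 3-h group alone.

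Other genes of the segmentation hierarchy were counted against the same share of 24.6% of genes past 2-fold higher and against 28.6% past 2-fold lower. All 6 pair-rule genes of the list were past 2-fold higher at 3 h, including ftz from 0.338 to 170.4 FPKM, eve from 0.515 to 142 and h from 0.496 to 134 FPKM. Of 7 head gap genes 6 were past 2-fold higher, led by slp1 from 1.07 to 73.6 FPKM, and cnc, which was loaded maternally at 78.3 FPKM, was past 2-fold lower at 21.5 FPKM. At 0.75 h the 6 pair-rule genes and 5 of the head gap genes were below the FPKM minimum. Those genes passed the filter through the 3-h group alone. Of 8 maternal regulators 6 were past 2-fold lower and 0 higher, among them exu from 389 to 4.84 FPKM, swa from 269.6 to 26.4 and nos from 205 to 19.4 FPKM. Among 9 genes of the terminal pathway that could be tested, 2 were past 2-fold higher, with the corepressor gene gro from 139.5 to 298 FPKM, and 4 were past 2-fold lower, with Dsor1, the gene of a kinase of the pathway, from 70.9 to 20.5 FPKM. Among 6 general activators D, a Sox-domain gene, was past 2-fold higher at 1.17 and 192 FPKM, lilli was past 2-fold lower, and zld, which encodes Zelda, was 90.3 and 146 FPKM.

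At 3 h the 6 gap genes were within a narrow band in 1 wild-type collection and spread out in another. The highest member was 1.76 times the lowest in the stage series, 2.52 times in the jumu series and 6.74 times in the DMAD series. The order from high to low was gt, hb, kni, Kr, hkb, tll in the stage series, Kr, kni, gt, hb, hkb, tll in the jumu series and Kr, gt, tll, kni, hb, hkb in the DMAD series. With 1 value per group it is not known which neighbours in these orders differ beyond their spread. hb was 121.4, 69.3 and 19.7 FPKM in the 3 wild types, a range of 2.57 in log2(FPKM + 1), and hkb was 82.8, 60.2 and 17.0 FPKM, a range of 2.22. Kr had the smallest range of the members, 0.20, at 117, 132 and 114.8 FPKM. kni ranged from 55.6 to 121.9 FPKM, gt from 78.6 to 138 FPKM and tll from 52.5 to 78.5 FPKM. The median range over 9403 genes was 1.42, and 72.1% of genes differed by at least 1 between their highest and lowest 3-h wild type. Differences past 2-fold were thus common between wild-type collections of the same labelled age. The authors name different sequencers and read lengths for the stage series and the 3-h jumu series, whose part in these ranges was not tested. The 2 wild types at 0.75 h had a median range of 0.27 over 7548 genes. A range over 2 groups tends to be smaller than one over 3, so the 2 medians are not like for like. hb was 121.6 and 105.9 FPKM there, and Kr was 0.737 and 2.14 FPKM.

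From 3 h to 6 h the 6 gap genes had lower values as deposited, and 4 of 6 were past 2-fold lower against 16.3% of the 9576 genes tested. gt went from 138 to 20.7 FPKM, a difference of -2.69, tll from 78.5 to 12.96 FPKM (-2.51), kni from 119.8 to 45.9 FPKM (-1.36) and hb from 121.4 to 57.1 FPKM (-1.08). hkb lay just outside the rule, at 82.8 and 41.3 FPKM with a difference of -0.99, and Kr was 117 and 102 FPKM with a difference of -0.20. Kr was thus the highest gap gene at 6 h, 7.87 times the level of tll. With quantile normalization hb was at -0.86, Kr turned to 0.11 and 3 members were past 2-fold lower, against 18.8% of all genes. That scaling moved the median of all genes from 0.10 to -0.02. The range of hb, 2.57, and hkb, 2.22, between 3-h wild types was larger than their difference between 3 h and 6 h, whereas for gt and tll it was smaller, at 0.81 and 0.57.

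At the same step 24.4% of all genes were past 2-fold higher. All 6 pair-rule genes were past 2-fold lower at 6 h, ftz at 15.9, eve at 5.58 and h at 21.0 FPKM. Of 6 paralogs and later partners of gap genes 5 were past 2-fold higher, with pdm2 from 32.8 to 74.3 FPKM, nub from 31.0 to 71.6 and cas, a zinc-finger gene of neuroblasts, from 6.93 to 46.1 FPKM. knrl, the paralog next to kni, was 21.9 and 15.7 FPKM. Head gap genes gave 1 higher, 1 lower and 5 within 2-fold.

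No gap gene was past 2-fold in jumu M-Z+ embryos against the wild type of the same table. These groups address whether early RNAs depend on Jumu. At 0.75 h, 0 of 5 members tested were past 2-fold in M-Z+ embryos, against 5.11% of 7703 genes in either direction, and tll stayed below the minimum at 0.676 and 0.533 FPKM. Calls over all genes leaned to lower values, with 26.6% of them higher as deposited and 37.0% higher after quantile normalization. The largest difference was that of Kr, 2.14 FPKM in wild type and 3.98 in M-Z+ (0.67). At 3 h, 0 of 6 members were past 2-fold in M-Z+ against 23.0% of 10019 genes in either direction. Kr was 132 FPKM in wild type and 82.6 in M-Z+ (-0.67), gt 103 and 145.6 (0.49), and hb 69.3 and 96.8 (0.48). kni was 121.9 and 108 FPKM, tll 52.5 and 41.8 and hkb 60.2 and 52.2, with differences of -0.17, -0.32 and -0.20. With a wild type of another table as control 2 members were past 2-fold higher at each stage. These were Kr (1.52) and kni (1.11) at 0.75 h against the stage series. At 3 h they were hb (2.24) and hkb (1.56) against the DMAD series. The share of all genes was not computed for these controls. Between their highest and lowest 3-h wild type 72.1% of genes differed by at least 1.

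In embryos without maternal and zygotic jumu product 5 of the 6 gap genes had lower values at 3 h, of which 1, kni, was past 2-fold, against 20.7% of 9828 genes past 2-fold lower. kni was 121.9 FPKM in wild type, 108 in M-Z+ and 59.5 in M-Z- embryos, and its difference of -1.02 lay just inside the rule. Kr was 76.0 FPKM in M-Z- (-0.79), gt 64.7 (-0.67), hkb 43.6 (-0.46) and tll 38.02 (-0.45), while hb was higher at 90.6 FPKM (0.38). After quantile normalization hb turned to -0.13 and 3 members were past 2-fold lower, kni at -1.48, Kr at -1.23 and gt at -1.14. Under that scaling 15.1% of all genes were past 2-fold lower. As deposited, the median over members was -0.56 and over all genes -0.03. The 25th and 75th percentiles of all genes were -0.87 and 0.74, and every member except kni lay between them. The count past 2-fold as deposited thus did not set the gap genes apart from all genes. Against M-Z+ embryos, which share the missing maternal product, all 6 values were lower in M-Z- and 1 member, gt, was past 2-fold at 145.6 and 64.7 FPKM (-1.16), against 13.2% of 9075 genes past 2-fold lower. In that comparison 28.0% of all calls were higher as deposited and 38.8% after quantile normalization. The comparisons of M-Z- share groups and are not independent. The difference of kni turned to 0.10 when the control was the wild type of the DMAD table.

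Other genes of the hierarchy and markers of stage were counted in the same jumu groups. Of all genes, 11.5% were past 2-fold higher and 11.5% lower in M-Z+ at 3 h, and 18.6% were past 2-fold higher and 20.7% lower in M-Z-. All 6 pair-rule genes were past 2-fold lower in M-Z- against wild type, with h at 114 and 54.8 FPKM, ftz at 113 and 47.0 and eve at 104 and 50.3 FPKM, while 0 of 6 were in M-Z+. Of 7 head gap genes 1 was past 2-fold lower in M-Z+ and 2 in M-Z-, and of 5 paralogs 0 and 3 were. Of 10 terminal pathway genes 3 were past 2-fold higher in M-Z+, and 5 were higher and 2 lower in M-Z-. Of 6 general activators 2 were past 2-fold higher in M-Z+ and 3 in M-Z-. zld, within 2-fold in both, was 90.0 FPKM in wild type, 160 in M-Z+ and 137 in M-Z-. It was 146 and 46.9 FPKM in the other 3-h wild types. Maternal regulators were past 2-fold higher for 4 of 8 in M-Z+ and 6 of 8 in M-Z-. The RNA of bcd, the activator of hb, was 1.29 FPKM in wild type, 34.1 in M-Z+ and 105 in M-Z-, while the other 3-h wild types were at 16.5 and 21.5 FPKM. brat RNA was 44.4, 102.9 and 124.5 FPKM in the same 3 groups of the jumu series and 78.4 and 20.4 FPKM in the other wild types. Of 12 maternal RNAs that embryos clear, 7 were past 2-fold higher in M-Z+ and 10 in M-Z-, with summed levels of 655 FPKM in wild type, 1824 in M-Z+ and 3023 in M-Z-. The other 3-h wild types summed to 1122 FPKM in the stage series and 1810 FPKM in the DMAD series. The M-Z+ sum lay close to the latter, but pgc alone made up 1009 of that 1810 FPKM, against 53.4 FPKM in M-Z+. Of 6 blastoderm RNAs 1 was past 2-fold higher in each mutant group and 0 lower, with sums of 3893, 3591 and 2358 FPKM. Of 10 RNAs of older embryos 2 were past 2-fold lower in each mutant group, near the share of all genes in M-Z-, with sums of 150.1, 125 and 93.8 FPKM. The part of embryo age in the values of the gap genes was not tested.

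**Figure D2:**
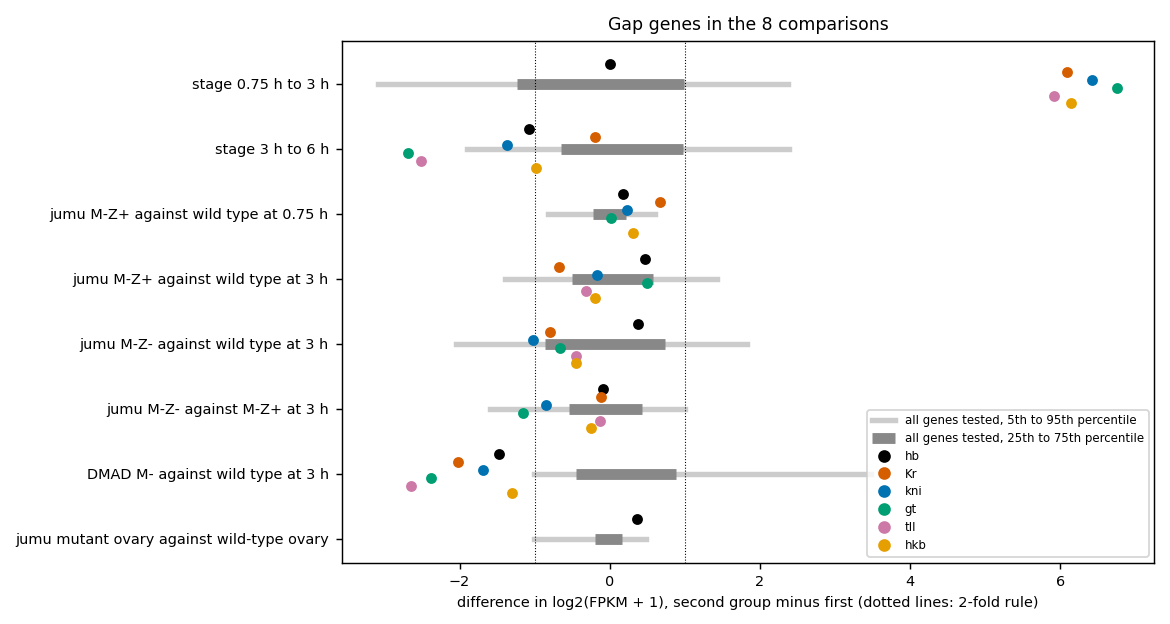
Difference in log2(FPKM + 1), second group minus first, for each gap gene tested (colored points) in the 8 comparisons, over bars for the 5th to 95th and 25th to 75th percentiles of all genes tested and dotted lines at the 2-fold rule. The 5 gap genes other than hb stand between 5.92 and 6.76 from 0.75 h to 3 h, and all 6 stand between -2.65 and -1.30 in M- DMAD embryos.

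In embryos from mothers without DMAD all 6 gap genes were lower at 3 h, and 6 of 6 were past 2-fold lower, against 5.07% of 8961 genes. Values past 2-fold higher were found for 23.0% of genes and for no gap gene. tll was 56.2 FPKM in wild type and 8.09 in M- DMAD (-2.65), gt 78.6 and 14.2 (-2.38), Kr 114.8 and 27.4 (-2.03), kni 55.6 and 16.6 (-1.68), hb 19.7 and 6.397 (-1.48) and hkb 17.0 and 6.31 (-1.30). The wild-type value was 2.70 times the mutant value for hkb and 6.95 times for tll. For hb and hkb the range between 3-h wild types, 2.57 and 2.22, was larger than the difference here. The wild type of this series was the lowest of them for both genes. For Kr, kni, gt and tll the range was smaller than the difference. All 6 differences were at or below the 2.47 percentile of genes tested, and their median was -1.86 against 0.04 over all genes. Kr was the highest and hb and hkb the lowest members in both groups, while kni stood below gt and tll in wild type and above them in M- DMAD. After quantile normalization all 6 were again past 2-fold lower, between -2.97 and -1.84, but 14.1% of all genes then were too, the median of all genes was -0.24, and the share of higher values among all calls went from 82.0% to 51.7%. Against the 3-h wild types of the stage and jumu series, from other tables, all 6 were also past 2-fold lower. The share of all genes was not computed for these controls.

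CG9380 spans Kr on the opposite strand, and whether strand was used in counting is not given in the sources used here, so reads of the 2 genes may not be told apart. CG9380 was at 0.344 FPKM in wild type and 8.04 in M- DMAD, opposite in direction to Kr. Other patterning genes were past 2-fold in the same comparison. All 6 pair-rule genes were past 2-fold lower, with ftz at 75.0 and 14.8 FPKM, prd at 40.6 and 7.19 and h at 36.0 and 10.001 FPKM. Of 7 head gap genes 2 were past 2-fold lower, slp1 at 55.3 and 26.4 FPKM and croc at 8.04 and 3.31 FPKM, and of 5 paralogs 0 were. Among maternal regulators 1 of 8, exu, was past 2-fold higher, at 2.41 and 13.1 FPKM, and 0 were lower. Among general activators D, at 343 and 82.1 FPKM, and zld, at 46.9 and 22.4 FPKM, were past 2-fold lower, and the other 4 were within 2-fold. In the terminal pathway 1 of 10 genes, tsl, was past 2-fold higher and 0 were lower.

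Blastoderm RNAs, markers of embryo age, were lower together with the gap genes in the DMAD series. All 6 blastoderm RNAs tested were past 2-fold lower in M- DMAD, with a median of -4.35 and a summed level of 6294 FPKM in wild type and 212 in the mutant. halo was 4465 and 133 FPKM, bnk, which acts in cellularization, 1159.6 and 3.11, sisA 243 and 43.4 and slam 220.1 and 16.7 FPKM. In the stage series the same list summed to 66.5 FPKM at 0.75 h, 6100 FPKM at 3 h and 97.3 FPKM at 6 h. Of 12 cleared maternal RNAs 2 were past 2-fold higher and 1 lower, with a median of 0.53 against 0.04 over all genes. Their sums were 1810 and 1555 FPKM, of which pgc alone made up 1009 and 459 FPKM. Of 10 RNAs of older embryos 3 were past 2-fold higher and 0 lower, with sums of 92.6 and 117 FPKM. Of all genes, 23.0% were past 2-fold higher and 5.07% lower. The part of embryo age in the lower gap gene values was not tested. In whole embryos, fewer expressing nuclei and less RNA per nucleus cannot be told apart.

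**Figure D3:**
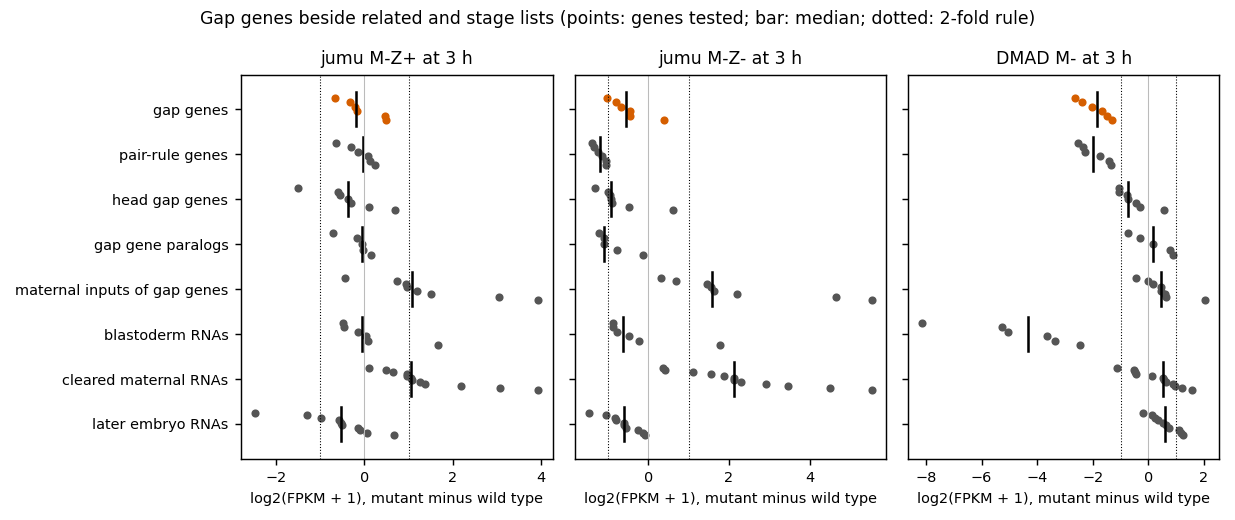
Difference in log2(FPKM + 1), mutant minus wild type of the same table, of the genes tested in 8 lists (points, gap genes in orange, bar at the median) in M-Z+, M-Z- and M- DMAD embryos at 3 h, with dotted lines at the 2-fold rule. Gap genes, pair-rule genes and blastoderm RNAs are low together in M- DMAD, with medians of -1.86, -2.01 and -4.35, while cleared maternal RNAs are high in M-Z-, with a median of 2.13.

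Across the 12 groups the 5 gap genes other than hb followed each other, with Pearson r of log2(FPKM + 1) from 0.96 to 0.99, while hb had r from -0.27 to -0.10 with them. These values describe 12 groups that share tables and stages and are dominated by the step from 0.75 h to 3 h. A gene not listed in a group was set to 0 there, as was tll in the ovary groups. Among 8642 other genes with an FPKM of at least 5 somewhere, the 10 most like the mean of the 5 were CG15628, odd, byn, Sr-CII, ftz, croc, lncRNA:CR44931, qkr58E-1, CG8654 and sna, with r from 0.99 to 0.98. Of these genes, byn, Sr-CII and ftz had 2 groups set to 0 and lncRNA:CR44931 had 4. odd and ftz are pair-rule genes, byn is a hindgut T-box gene, croc a head forkhead gene and sna a mesoderm repressor gene. The 3 genes most like hb were CycE, the cyclin of S-phase entry, Taf4, a subunit of TFIID, and Trf4-1, with r from 0.99 to 0.98.

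No gap gene carried a 6mA or Jumu-binding peak. A gene was counted as marked when the centre of a peak lay between 1 kb upstream of its start and 1 kb downstream of its end. The peak lists had 1 library each, and the Jumu-binding lists report binding to purified DNA, not occupancy in embryos. In all, 0 of 6 gap genes were marked by 6mA at any wild-type stage against 22.8% of 17796 genes, 0 of 6 in DMAD knockdown embryos at 6 h against 14.2%, and 0 of 6 by Jumu at either stage against 4.89%. With 5 kb to each side, 1 of 6, hb, was marked in wild type against 46.4% of genes, 2 of 6, hb and gt, in the knockdown against 29.1%, and 0 of 6 by Jumu against 10.1%. With 6 members, counts of 0 at the shares of the 1-kb window do not set the gap genes apart from all genes. The gap genes are short, between 1632 and 6843 bp, and a short gene offers less room for a peak, whose part in these counts was not tested.

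Within 20 kb of a member, 12 6mA peaks were found around 5 genes at 0.75 h, 2 peaks around 2 genes at 3 h, 0 peaks at 6 h and 8 peaks around 4 genes in the DMAD knockdown at 6 h. Of all genes, 85.5%, 37.2%, 24.2% and 66.4% had a peak of these lists within 20 kb. Jumu-binding peaks were absent within 20 kb of all 6 genes at both stages, where 24.5% of genes at 0.75 h and 10.5% at 6 h had one. The 6mA lists held 17528, 4363, 2447 and 8367 peaks in the same order, so the counts near the gap genes moved with the size of the lists.

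hb held 6 of the 12 peaks of 0.75 h. The score of a peak is 10 times the -log10 of its q value. The peak with the highest score lay 7824 bp upstream of the distal start at 8705646 to 8705966, in intergenic DNA whose nearest gene is Cks85A, with a score of 615, at the 85.9 percentile of its list. At the same place the 3-h list had a peak with a score of 38 and the knockdown list one with a score of 93, while the 6-h wild-type list had its nearest peak 58029 bp away. 3 further upstream peaks at 0.75 h scored 217, 308 and 343 and lay 9407, 12014 and 12975 bp from the gene, and 2 downstream peaks scored 130 and 104 and lay 4155 and 3357 bp from it. The knockdown list had 4 peaks near hb, each overlapping a 0.75-h peak, with scores from 92 to 140. gt had a knockdown peak with no overlapping wild-type peak, 2048 bp beyond its 3′ end in an exon of CG32797, with a score of 127. The 3-h hb peak, which lies inside the 0.75-h and knockdown peaks at that place, and the gt peak are shown because they are the upstream hb peak found in 3 of 4 6mA lists and the peak nearest to any member. They are dm6 plus-strand sequence with matches to the 4 words in capitals, and 25.5% of the bases of the hb peak and 17.9% of those of the gt peak were A.
hb upstream peak, 3 h, chr3R:8705750-8705906: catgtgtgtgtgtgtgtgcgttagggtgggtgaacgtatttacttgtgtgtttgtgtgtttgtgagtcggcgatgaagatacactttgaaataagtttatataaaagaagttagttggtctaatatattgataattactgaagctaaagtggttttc
gt downstream peak, DMAD knockdown, chrX:2424848-2425065: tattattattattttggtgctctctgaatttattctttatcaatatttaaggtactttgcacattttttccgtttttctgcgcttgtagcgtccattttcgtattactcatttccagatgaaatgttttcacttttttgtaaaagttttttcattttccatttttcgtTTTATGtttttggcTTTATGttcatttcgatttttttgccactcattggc

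The hb peak held none of the 4 words and a run of alternating T and G, and the gt peak held TTTATG at 2 places. The other flanks had few peaks. gt had a 6mA peak 19314 bp beyond its 3′ end at 0.75 h, with a score of 282, which was also in the 3-h list (189) and the knockdown list (140). kni had 1 peak at 0.75 h, 18183 bp upstream in an exon of cmpy with a score of 97, which the knockdown list shared (68). hkb had 1 peak at 0.75 h, 15449 bp upstream in an intron of CG1090 with a score of 179. tll had none within 20 kb, and its nearest 6mA peak was 23024 bp upstream in the knockdown list.

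Kr had 3 peaks at 0.75 h, all in introns of CG9380, at 15375 and 8634 bp upstream and 6788 bp downstream, with scores of 97, 164 and 63, and none of them was in another list. The knockdown list had 1 peak 16315 bp downstream of Kr with a score of 51. The nearest Jumu-binding peak of any member was also that of Kr, 26991 bp downstream at 0.75 h with a score of 104, and the 6-h list had a peak at the same place with a score of 138. In either list, for the other 5 genes, the nearest Jumu-binding peaks lay between 45073 and 543811 bp away.

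**Figure D4:**
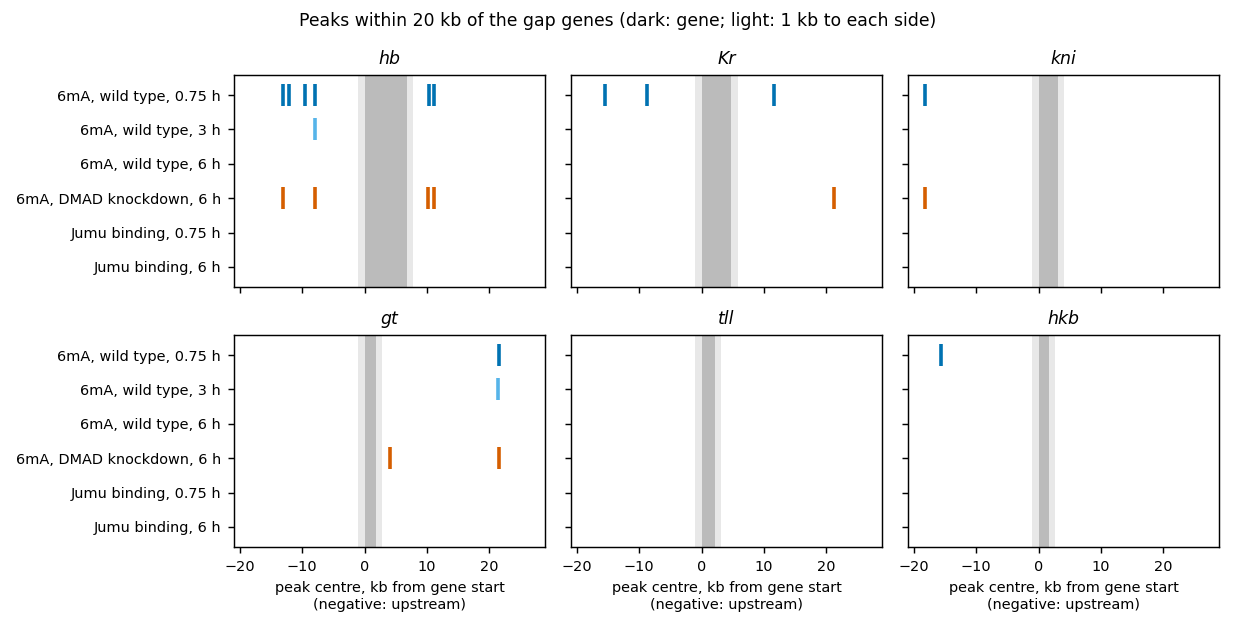
Centres of the peaks within 20 kb of each gap gene, in kb from the gene start (negative values upstream), for the 6 peak lists, with the gene in dark grey and 1 kb to each side in light grey. No peak centre falls in a grey area, hb has 6 of the 12 peaks of 0.75 h, and the 6-h wild-type list and both Jumu-binding lists are empty.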

How the data were processed

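RNA was sequenced from 2 libraries per group in 12 groups. The authors discarded rRNA reads, aligned the remainder with STAR against dm6, and deposited 1 cuffdiff FPKM value per gene and group. The submitters' processing notes also name TopHat2. The 6mA and Jumu-binding libraries were mapped with Bowtie2, and the deposited peak lists hold MACS2 peaks called against IgG, with a peak score of 10 times the -log10 of the q value. Other RNA groups of the series (DMAD knockdown and its wild type at 6 h, zld overexpression at 3 h) were not analysed here.

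With 1 value per group, differences in log2(FPKM + 1) were counted by the 2-fold rule, with no test, and counts of gap genes and of other lists are read against the share of all genes past the rule in that comparison and direction. No SD, p-value or left-out library was possible. Genes below an FPKM of 1 in both groups were left out. Alternatives were a pseudocount of 0.1, a 1.5-fold rule, other filters, quantile normalization and other wild types as control, and for peaks the gene body alone, 5 kb to each side, any overlap of 1 bp and a score of at least 50. Gene models came from Ensembl (17796 FlyBase genes on the main chromosome arms), and sequences from the RefSeq copy of the same assembly, release 6, in which no peak passed the end of its chromosome arm. All 6 members matched by identifier. The symbols nos, h, phl and CLAMP of the lists were matched to the current names nanos, hry, Raf and Clamp, and frs was not analysed here. Named genes of a list are those with the highest FPKM in the comparison, and zld, bcd and the genes behind counts of 5 or fewer were named after their values were seen, and the searches for like genes and for peaks within 20 kb covered all members. The members and lists were chosen with earlier results of these data known. Python 3.11.15, numpy 2.4.6 and pandas 2.3.3 were used.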

Additional observations from a re-analysis of the deposited data

Results flagged for a closer look

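Kr differed in opposite directions between M-Z+ and wild type at the 2 stages, with values of 0.67 at 0.75 h and -0.67 at 3 h in log2(FPKM + 1), so that the difference at 3 h minus that at 0.75 h was -1.34. With 1 value per group this difference between stages was not tested. Kr was at 2.14 and 3.98 FPKM at 0.75 h, near the FPKM minimum, and the 2 wild types of that stage were at 0.737 and 2.14 FPKM.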

How the results depend on the processing

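Of 59 alternatives to the counts of gap genes, 46 stayed within 1.5 times the count. Some of these could not move, since the gene body alone or a score of at least 50 cannot raise a peak count of 0. The count of 6 in M- DMAD was 6 under every alternative run. From 0.75 h to 3 h, 5 became 0 when an FPKM of at least 1 was asked of both groups, since that drops the 5 genes. With the 1.5-fold rule the counts were 1 for M-Z+ at 0.75 h and 1 for M-Z+ at 3 h. They were 3 for M-Z- against wild type and 2 for M-Z- against M-Z+. Quantile normalization gave 3 and 2 for the last 2, against 15.1% and 9.21% of all genes past 2-fold lower. With the stage-series wild type as control the count was 2 (both higher) for M-Z+ at 0.75 h and 2 (both lower) for M-Z- at 3 h. With the DMAD-series wild type it was 2 (both higher) for M-Z+ at 3 h and 2 (both higher) for M-Z-, and the difference of kni in M-Z- turned from -1.02 to 0.10. The cause was not tested. The share of all genes was not computed for the 1.5-fold rule or for controls from another series. With 5 kb to each side of a gene, 1 gap gene was marked by 6mA in wild type and 2 in the DMAD knockdown. No paired analysis was possible because each group was deposited as 1 pooled value, and for the same reason no library could be left out. The read depth behind the FPKM values is unknown, so low values such as those at 0.75 h carry an unknown counting error.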
